A study of Mus musculus with 21 samples.

Results

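Transcript levels of 39 genes of the G1/S transition and of DNA replication were followed in the mouse pro-B line Ba/F3, whose growth depends on interleukin 3. The genes were chosen by name, and every array probe carrying one of these names was taken. That gave 75 probes for 35 of the 39 genes, out of 45281 probes on each Illumina array. In the actuation batch, cells were exposed for 15 min on a digital microfluidic device, in which voltages on buried electrodes move the droplets that hold the cells, at 400 Vpp and 18 kHz or 1 kHz, and were compared with untreated cells of the same batch. In the heat batch, untreated cells were compared with cells heated for 15 min at 42, 47 or 52 °C. Each of the 7 groups had 3 arrays, 21 in all, and every group held the same line with no other stated genetic or chemical treatment. The labels do not say that the 3 arrays of a group came from separate cultures, so that p-values measure the spread between these arrays, which may be technical. Batches were normalized separately and no level was compared between them.

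In G1, D-type cyclins with Cdk4 phosphorylate the retinoblastoma protein and release E2F transcription factors, which raise cyclin E, the partner of Cdk2, and many replication genes. The origin recognition complex, Cdc6 and Cdt1 load the MCM helicase onto origins, and Cdc45 and GINS turn it into the moving helicase. Replication factor C then loads the sliding clamp Pcna for the polymerases, while ribonucleotide reductase and thymidylate synthase supply nucleotides. In a growing line such as Ba/F3, the transcripts of many of the replication genes peak around the start of S phase.

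A probe was tested where its signal exceeded the negative controls, with a detection p under 0.01, on 3 or more arrays of its batch. This held for 62 probes of 33 genes in the actuation batch and 63 probes of 33 genes in the heat batch. The single probes of Pola1, the catalytic subunit of the priming polymerase, and of Slbp, which binds histone mRNA, were detected on 0 of 9 and 0 of 12 arrays and have no change here. The arrays carry no probe under the names Cdc45, Orc1, Orc2 and Orc6. Probes under the older names Cdc45l, Orc1l, Orc2l and Orc6l were matched through the naming table and are described once, after the members. Of the 33 tested genes, 16 had several tested probes in the actuation batch and 17 in the heat batch, and results are given per probe. Levels are log2 quantile-normalized intensities and serve to compare arrays for 1 probe, not probes with each other.

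Some arrays stood apart. The 18 kHz arrays were the dimmest of the actuation batch, with 95th percentiles of bead intensity of 732.7, 277.4 and 1110.7 at 18 kHz, against 1401.8, 1618.5 and 1857.1 at 1 kHz and 1524.2, 1494.8 and 1482.4 in untreated cells. They detected 55, 45 and 61 member probes at 18 kHz, against 59 to 62 in untreated cells. Quantile normalization equalizes such differences for bright probes and hides any change of all transcripts together. In bulk RNA, fewer cells making a transcript and less of it per cell cannot be told apart. Each batch lay on 2 beadchips. Beadchip 1 of the actuation batch held 18 kHz replicates 2 and 3, 1 kHz replicate 2 and all untreated arrays. Beadchip 1 of the heat batch held untreated replicates 2 and 3, 42 °C replicate 2, 47 °C replicates 1 and 3 and 52 °C replicate 3. The other arrays lay on beadchip 2, so that within 1 beadchip every comparison except 18 kHz against untreated cells and 47 °C against untreated cells on beadchip 1 has a group of 1 array. Changes within beadchips are given there as values with no test. In the heat batch, 47 °C replicate 2 and untreated replicate 1, both on beadchip 2, shared deviations from their group means over all tested probes (r = 0.49). The next highest pairs also shared a beadchip. They were 47 °C replicate 1 with untreated replicates 2 (r = 0.39) and 3 (r = 0.21) on beadchip 1, and 42 °C replicate 3 with 47 °C replicate 2 (r = 0.24) on beadchip 2. The part of the beadchip in these deviations was not tested. Of the markers of the line, Cd79b, Csf2rb, Csf2rb2, Il3ra and Ptprc were tested in both batches, while Pax5, Ebf1, Igll1, Vpreb1, Cd22, Kit, Rag1 and Rag2 did not pass detection, and 0 of 14 fibroblast probes did.

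Actuation at 18 kHz went with a higher level of Ccnd2 (cyclin D2, which opens G1 progression with Cdk4) and lower levels of dim probes for Ccne2 (cyclin E2, a partner of Cdk2) and Mcm4 (a subunit of the MCM helicase). At an adjusted p below 0.05 in limma, 5 of 62 member probes were called against untreated cells (8.06%), 2 higher and 3 lower, beside 2.94% of all 14130 tested probes (1.28% higher and 1.66% lower). Under median scaling the balance turned, with 4 members higher and 0 lower, and 432 of all probes higher and 162 lower, beside 181 and 235 under quantile normalization. The groups did not overlap for 31 of 62 member probes (50%), beside 30.3% of all probes. The median change was -0.17 (log2) over members and -0.08 over all probes. Below 0 lay 41 of 62 member probes, beside 8250 of 14130 of all probes. Lists of related genes without members had medians of -0.14 (other replication factors), -0.12 (other G1/S regulators) and -0.18 (G2/M genes), so that a fall of this size was not particular to the members.

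**Figure D1:**
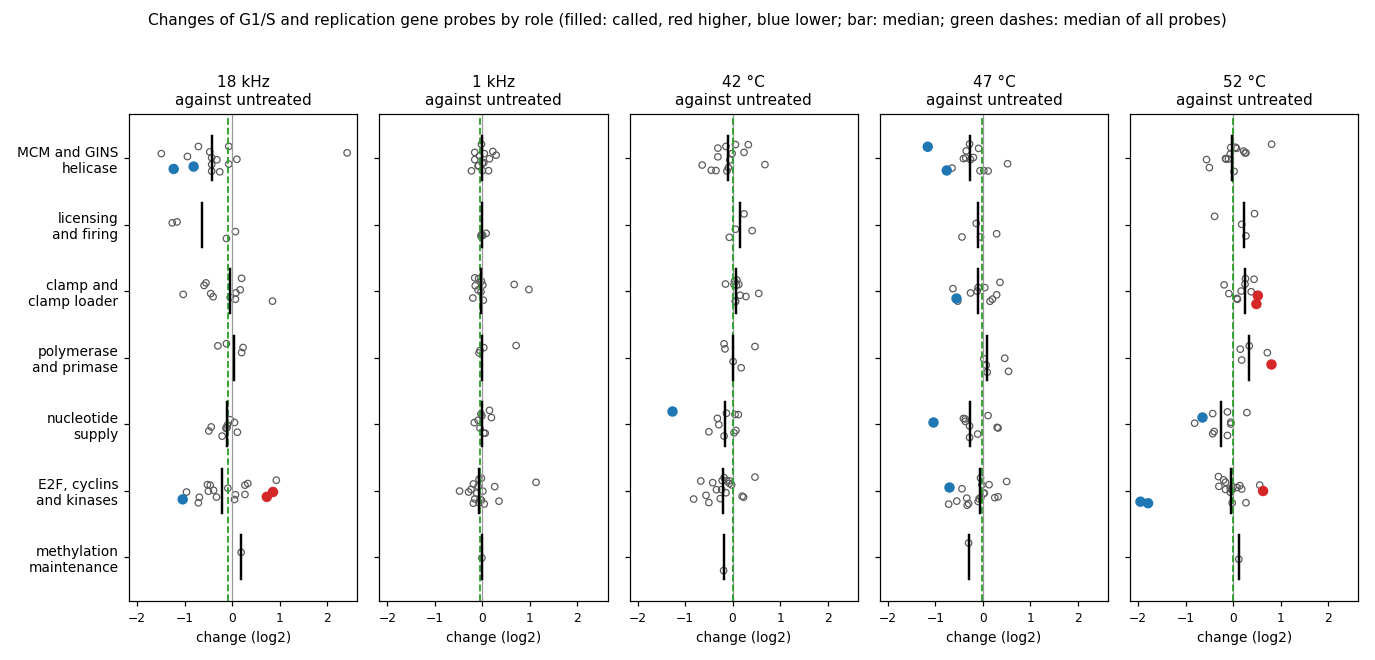
Log2 changes of the tested member probes in each treatment against the untreated cells of its batch, by role of the gene. Each circle is a probe, filled where the adjusted p was below 0.05 (red higher, blue lower), the black bar is the median of the role and the green dashed line the median of all tested probes. At 1 kHz 0 probes are filled, and the 5 filled at 47 °C all lie below 0.

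For Ccnd2 probe 1260324 the levels were 9.92, 9.99 and 9.81 at 18 kHz, 8.93, 8.97 and 8.91 at 1 kHz and 9.06, 9.21 and 9.25 in untreated cells. All 3 arrays at 18 kHz lay above all 6 others. The rise was 1.66-fold against untreated cells (0.73 ± 0.11 SE on the log2 scale, adjusted p = 0.0181) and 1.96-fold against 1 kHz (0.97 ± 0.11, adjusted p = 0.0081). Probe 1580088 gave 10.48, 10.61 and 10.35 at 18 kHz, 9.49, 9.69 and 9.45 at 1 kHz and 9.37, 9.74 and 9.73 in untreated cells, again without overlap. It was 1.82-fold higher against untreated cells (adjusted p = 0.0243) and 1.91-fold higher against 1 kHz (adjusted p = 0.0214). The third tested probe, 6770286, had levels of 7.41, 6.62 and 7.92 at 18 kHz, 5.93, 5.81 and 5.98 at 1 kHz and 6.43, 6.38 and 6.33 in untreated cells, and was not detected on 18 kHz replicate 2. It rose against 1 kHz (2.66-fold, adjusted p = 0.0428), and its difference of 0.93 from untreated cells had an adjusted p of 0.0862. Scaling the arrays by their medians instead of their quantiles left the first and second probes 0.64 and 0.82 above untreated cells (adjusted p = 0.031 and 0.0269). With the beadchip as a block these differences were 0.74 and 0.90 (adjusted p = 0.0383 and 0.0454), and within beadchip 1 they were 0.73 and 0.87 (adjusted p = 0.296 each).

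**Figure D2:**
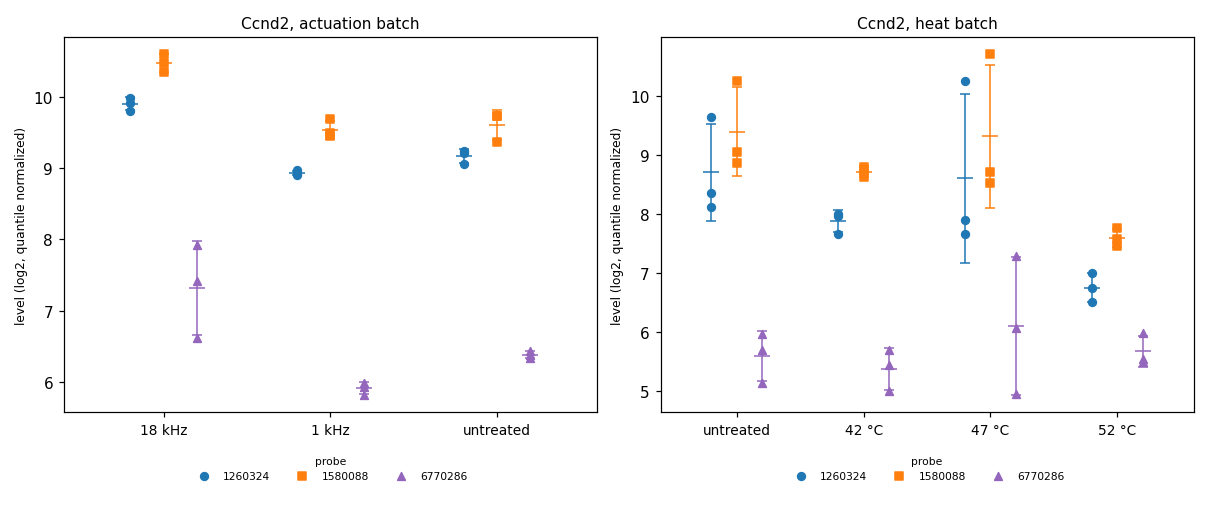
Levels of the 3 tested Ccnd2 probes on every array, in log2 quantile-normalized intensity, with mean and SD (n = 3 arrays) beside the points. In the left panel every 18 kHz array lies above the 1 kHz and untreated arrays for each probe. In the right panel probes 1260324 and 1580088 are lowest at 52 °C, and 47 °C replicate 2 and untreated replicate 1 lie far above the rest of their groups.

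Ccne2 probe 6020722 was at 4.61, 4.63 and 4.75 at 18 kHz, 5.74, 5.54 and 5.37 at 1 kHz and 5.55, 5.83 and 5.75 in untreated cells (adjusted p = 0.0122 against untreated cells and 0.0207 against 1 kHz). Mcm4 probe 5270382 was at 4.79, 4.52 and 5.22 at 18 kHz, 6.04, 6.14 and 5.96 at 1 kHz and 6.15, 5.85 and 6.20 in untreated cells (adjusted p = 0.0194 and 0.0222). Both probes lay below the other groups on each 18 kHz array but were detected on 0 of 3 of them, so that the level there is only a bound and no fold is given. The second Mcm4 probe, 6130288, was at 5.12, 5.49 and 5.58 at 18 kHz, 6.25, 6.10 and 6.01 at 1 kHz and 6.25, 6.15 and 6.22 in untreated cells. At 18 kHz 1 of its 3 arrays detected it. It fell by 0.81 against untreated cells (1.75-fold lower, adjusted p = 0.0297) and by 0.72 against 1 kHz (adjusted p = 0.0427). The bright Mcm4 probe 2320368, at 12.04, 12 and 12.02 at 18 kHz and 12.15, 12.09 and 12.04 in untreated cells, differed by -0.07. Under median scaling none of the 3 falls was called (adjusted p = 0.906 for Ccne2 and 0.759 for Mcm4 probe 5270382), and Mcm4 probe 6130288 differed by -0.02. With the beadchip as a block Ccne2 and Mcm4 probe 5270382 stayed called (adjusted p = 0.0288 and 0.0454), and Mcm4 probe 6130288, at -0.74, did not (adjusted p = 0.0551). Within beadchip 1 none of them was called (adjusted p = 0.232 for Ccne2 and 0.296 for both Mcm4 probes), and Mcm4 probe 6130288 differed by -0.67.

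**Figure D3:**
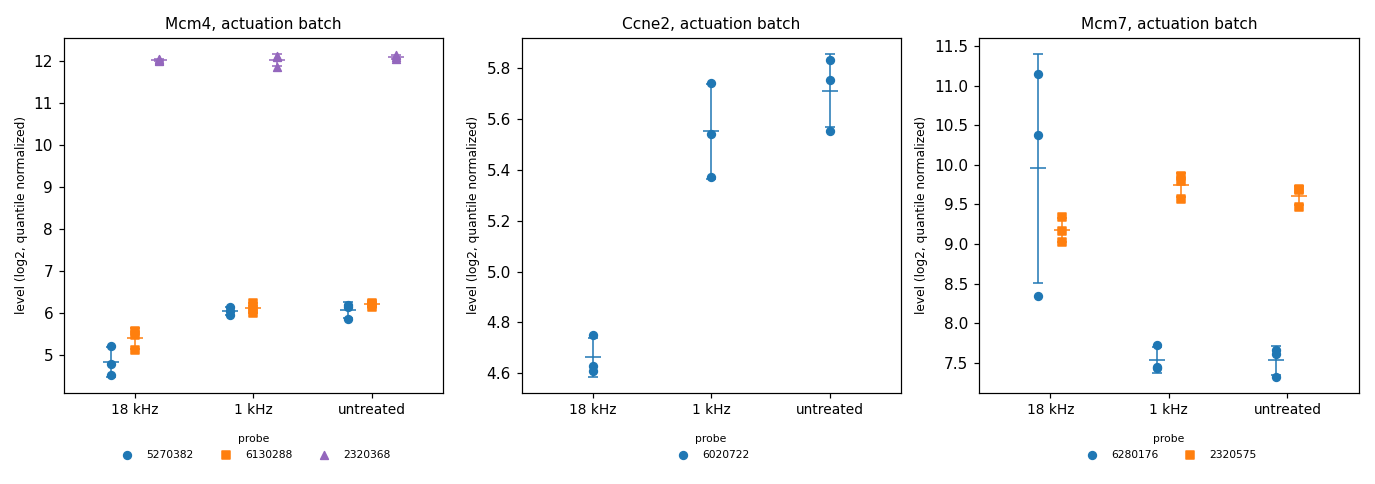
Levels of probes for Mcm4, Ccne2 and Mcm7 on the 9 actuation-batch arrays, in log2 quantile-normalized intensity, with mean and SD (n = 3 arrays). The 2 dim Mcm4 probes and Ccne2 are lower on every 18 kHz array, the bright Mcm4 probe differs by -0.07, and the 2 Mcm7 probes differ from untreated cells in opposite directions, neither of them called.

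The calls rested on few arrays. The number of called member probes was 1, 6 and 25 without 18 kHz replicates 1, 2 and 3, and 1, 0 and 0 without untreated replicates 1, 2 and 3, against 5 with all arrays. Each of the 5 calls was lost on leaving out at least 1 array, namely untreated replicate 2 or 3 for Ccne2, and 18 kHz replicate 1 or any untreated array for the other 4. Over these refits the Ccnd2 changes stayed between 0.68 and 0.93 and that of Mcm4 probe 6130288 between -0.9 and -0.67, with adjusted p up to 0.13 over all 5 probes. Without both dimmer arrays, 18 kHz replicates 1 and 2, the first and second Ccnd2 probes were 0.63 and 0.74 higher (adjusted p = 0.101 and 0.158), and Ccne2 and the dim Mcm4 probes were not called (adjusted p = 0.0816, 0.0927 and 0.125). This setting was chosen after seeing the data, and the lone remaining array is assumed to vary like the other groups.

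By role, 13 of 15 helicase probes (MCM subunits and the GINS subunits Gins1 and Gins2) lay below 0 at 18 kHz, with a median of -0.43, and 11 of 15 lay below the median of all probes. Under median scaling, which moved the median of all probes to 0.11, the helicase median was -0.36 and 13 of 15 lay below that of all probes, and without both dimmer arrays it was -0.18. Among helicase probes only the 2 of Mcm4 were called. Mcm3, for example, was at 8.15, 7.71 and 8.66 at 18 kHz and 8.69, 8.93 and 9.02 in untreated cells, without overlap (-0.71, adjusted p = 0.0999). Of the 18 probes for E2F, cyclins and kinases, 2 rose and 1 fell, and their median of -0.21 was -0.09 without background correction and -0.12 without both dimmer arrays and turned to 0.04 under median scaling. The 4 licensing and firing probes had a median of -0.64 with 0 called, which came to -0.32 under median scaling, -0.33 without background correction and -0.28 without both dimmer arrays, among them Cdc6 at 8.11, 6.09 and 7.76 at 18 kHz against 8.52, 8.45 and 8.47 in untreated cells (adjusted p = 0.133). The clamp and clamp loader (11 probes, median -0.04), polymerase and primase (4 probes) and nucleotide supply (9 probes, median -0.11) had 0 calls, and the polymerase median of 0.04 turned to -0.04 under median scaling, -0.16 with a beadchip block and -0.19 without both dimmer arrays. Uhrf1, which keeps DNA methylation at replication forks, was 0.19 higher without a call.

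Dim and bright probes differed in their changes at 18 kHz. They were split by the mean level over all arrays of the batch, those at 18 kHz included. A fall at 18 kHz moves a probe towards the dimmer part, so that some of the contrast may be built in by the split. Below the median level of all tested probes (7.76) lay 18 member probes, with a median change of -0.63, beside -0.18 for all probes at these levels, and all 3 falls were there. Above it lay 44, with a median change of -0.10, beside -0.03, and the 2 rises were there. The summed level of the markers of the line was 8258 to 9583 at 18 kHz against 9411 to 10970 in untreated cells, and its part in these values was not tested.

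Probes of 1 gene often disagreed. Of 16 genes with several tested probes, 10 had probes on both sides of 0 at 18 kHz and 10 at 1 kHz, as did 10 of 17 at 47 °C. Probes lay more than 1 log2 unit apart in 6 genes at 18 kHz, in 1 at 1 kHz and in 2 at 47 °C. The widest gap was in Mcm7, another helicase subunit, which is described here because of its values. Its probe 6280176 was at 10.38, 11.14 and 8.35 at 18 kHz, 7.45, 7.73 and 7.44 at 1 kHz and 7.61, 7.33 and 7.67 in untreated cells, a difference of 2.42 that was not called (adjusted p = 0.06). Its probe 2320575 was at 9.34, 9.03 and 9.17 at 18 kHz, 9.86, 9.57 and 9.79 at 1 kHz and 9.68, 9.69 and 9.47 in untreated cells (-0.43, adjusted p = 0.0927). Rfc2, a clamp loader subunit, also named for its values, had probe 2570246 at 12.20, 12.51 and 11.48 at 18 kHz and 11.16, 11.26 and 11.21 in untreated cells (0.85, adjusted p = 0.0741), and probe 1580278 at 8.92, 8.71 and 9.22 at 18 kHz and 9.53, 9.57 and 9.53 in untreated cells (-0.59, adjusted p = 0.0558). Mcm7 probe 6280176 and Rfc2 probe 2570246 were both highest on 18 kHz replicate 2, the dimmest array, and lowest of the group on replicate 3, the brightest.

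At 1 kHz no member probe passed the test. In limma 0 of 62 were called, beside 0% of all probes, and at an unadjusted p below 0.05 the counts were 0 members and 251 of all probes. The median change was -0.02 over members and -0.04 over all probes, and the groups did not overlap for 6 member probes (9.68%), beside 13.3% of all. The probes with the smallest p were 2 of Ccnd2, 1 of Ccnd3 (cyclin D3), Pcna (the sliding clamp) and Prim1 (the primase subunit), each with an adjusted p of 1. Ccnd2 probes 1260324 and 6770286 differed by -0.24 and -0.48, with all 3 arrays at 1 kHz below those of untreated cells. Ccnd3 probe 2320050 was at 7.49, 6.08 and 7.26 at 1 kHz and 5.63, 5.57 and 6.22 in untreated cells. Pcna was at 12.51, 10.75 and 11.93 at 1 kHz and 10.26, 11.01 and 10.98 in untreated cells, and Prim1 was at 8.38, 7.09 and 8.41 at 1 kHz and 7.43, 6.95 and 7.37 in untreated cells. All 3 were high on 1 kHz replicates 1 and 3, both on beadchip 2. Their differences of 1.13, 0.98 and 0.71 became 0.15, -0.05 and -0.14 with the beadchip as a block, and 0.27, 0.01 and -0.17 within beadchip 1, where 1 kHz has 1 array.

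Set directly against 1 kHz, the 18 kHz arrays had 6 of 62 member probes called (9.68%), the 3 of Ccnd2 higher and Ccne2 and both dim Mcm4 probes lower as given above, beside 2.41% of all probes (1.45% higher and 0.955% lower). The groups did not overlap for 29 (46.8%), beside 28.6% of all, and the median difference was -0.24 over members and -0.08 over all probes. Under median scaling 5 members were higher and 2 lower, beside 3 and 3 here. This comparison shares the 18 kHz arrays with that against untreated cells and is not independent of it. A beadchip block gave 0.97, 0.90 and 1.46 for the Ccnd2 probes and -0.79 for Mcm4 probe 6130288. The third Ccnd2 probe and this Mcm4 probe were no longer called (adjusted p = 0.072 and 0.0525), while Ccne2 and Mcm4 probe 5270382 stayed called (adjusted p = 0.0433 and 0.0445). Within beadchips 1 and 2 the Ccnd2 probes differed by 0.93 and 1.0, 0.79 and 1.0, and 1.45 and 1.46. Without 18 kHz replicates 1, 2 and 3 the counts were 1, 5 and 25, and without 1 kHz replicates 1, 2 and 3 they were 0, 1 and 0. All 6 calls were lost on leaving out 1 kHz replicate 1 or 3, and the first Ccnd2 probe was otherwise kept.

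At 42 °C the member probe that passed the test was one of Rrm2, the small subunit of ribonucleotide reductase, and it fell. Of 63 member probes 1 was called (1.59%), beside 2.38% of all 13773 tested probes (1.18% higher and 1.21% lower). The groups did not overlap for 13 (20.6%), beside 27.2% of all. The median change was -0.07 over members and 0 over all probes. Rrm2 probe 3440725 was at 9.39, 9.88 and 9.99 in untreated cells, 8.59, 8.21 and 8.65 at 42 °C, 9.24, 8.75 and 8.12 at 47 °C and 9.03, 9.47 and 9.47 at 52 °C. It fell at 42 °C by 1.27 ± 0.26 (SE, log2), or 2.41-fold (adjusted p = 0.0235), with no overlap. The other Rrm2 probes were not called: 5560646 was at 9.38, 9.41 and 9.65 at 42 °C against 9.61, 9.87 and 9.94 in untreated cells (-0.32, adjusted p = 0.303), and 2190110 differed by 0.12. With the beadchip as a block the change of probe 3440725 was -1.25 (adjusted p = 0.0358), and within beadchips 1 and 2 it was -1.73 and -0.77. The call was lost without any 1 of the 42 °C arrays or without untreated replicate 2 or 3, with changes from -1.45 to -1.13 and adjusted p up to 0.115. The summed level of the markers of the line was 5613 to 7083 at 42 °C and 6682 to 7299 at 47 °C against 7412 to 9297 in untreated cells, without overlap, and its part in the changes at 42 and 47 °C was not tested.

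The next smallest p at 42 °C were those of E2f1, Cdk2, Rfc4 and Mcm10, none called. E2f1, an activating E2F factor, was at 8.06, 8.08 and 8.01 at 42 °C and 8.50, 8.69 and 8.64 in untreated cells, without overlap (-0.56, adjusted p = 0.0768). Cdk2 probe 2000440 was at 7.03, 6.97 and 7.14 at 42 °C against 7.11, 7.61 and 7.69 in untreated cells (-0.42, adjusted p = 0.24). Rfc4 probe 6350672, for a clamp loader subunit, was at 7.47, 7.50 and 7.04 at 42 °C and 6.58, 7.14 and 6.62 in untreated cells (0.55, adjusted p = 0.243). Mcm10 probe 4220326, for a factor that helps fire origins, was at 10.30, 10.54 and 10.44 at 42 °C and 9.77, 10.07 and 10.21 in untreated cells (0.41, adjusted p = 0.263).

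At 47 °C probes for Mcm6 (a helicase subunit), Cdk2 (the S-phase kinase), Rrm2 and Rfc3 (a clamp loader subunit) were called lower. No member probe was called higher. Of 63 member probes 5 were called, all lower (7.94%), beside 7.83% of all probes called in either direction (3.42% higher and 4.41% lower). The groups did not overlap for 26 member probes (41.3%), beside 34% of all probes. The median change was -0.10 over members and -0.01 over all probes. Below 0 lay 40 of 63 member probes, beside 7000 of 13773 of all probes. The medians of the related lists were -0.04 (other replication factors), -0.10 (other G1/S regulators) and 0.15 (G2/M genes). By role the median was -0.27 for the helicase, -0.28 for nucleotide supply, -0.10 for the clamp and its loader, -0.09 for licensing and firing, -0.06 for E2F, cyclins and kinases and 0.09 for polymerases and primase. Under median scaling the roles below 0 stayed below 0, with helicase at -0.19 and nucleotide supply at -0.17, and without background correction nucleotide supply was at -0.18. Without 47 °C replicate 2 the medians of licensing and firing and of the clamp and its loader were 0.05 and 0.02.

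Mcm6 probe 270379 was at 9.98, 10.49 and 10.25 in untreated cells, 10.14, 9.68 and 9.96 at 42 °C, 9.68, 9.28 and 9.49 at 47 °C and 10.34, 10.11 and 10.33 at 52 °C. The 47 °C arrays lay below all untreated and 52 °C arrays, and the level fell by 0.76 ± 0.17 (1.69-fold, adjusted p = 0.0254). Mcm6 probe 5700224 was at 5.53, 5.74 and 4.68 at 47 °C, the last not detected, and 6.62, 6.57 and 6.25 in untreated cells (-1.16, 2.24-fold lower, adjusted p = 0.0453). Under median scaling probe 5700224 differed by -0.99 and was not called (adjusted p = 0.0511). The brighter Mcm6 probes 3290437 and 3990243 differed by -0.41 (adjusted p = 0.118) and -0.06 (adjusted p = 0.797). Cdk2 probe 2000440 was at 7.11, 7.61 and 7.69 in untreated cells, 7.03, 6.97 and 7.14 at 42 °C, 6.86, 6.59 and 6.84 at 47 °C and 7.31, 7.12 and 7.09 at 52 °C. It fell by 0.71 ± 0.16 at 47 °C (1.63-fold, adjusted p = 0.0269), without overlap, while the other Cdk2 probes differed by -0.72, -0.44 and -0.02 and were not called.

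Rfc3 probe 4560440 was at 7.22, 7.59 and 7.40 in untreated cells, 7.41, 7.48 and 7.49 at 42 °C, 6.77, 6.77 and 6.95 at 47 °C and 7.30, 7.12 and 7.51 at 52 °C. All 47 °C arrays lay below all 9 others, 1.49-fold lower than untreated cells (-0.57 ± 0.14, adjusted p = 0.0334). Its second probe, 3310288, was not called (adjusted p = 0.141) and was detected on 0 of 3 arrays at 47 °C. Rrm2 probe 3440725, with the levels given above, fell by 1.05 ± 0.26 at 47 °C (2.08-fold, adjusted p = 0.0323), and its probe 5560646 differed by -0.41 (adjusted p = 0.0909).

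**Figure D4:**
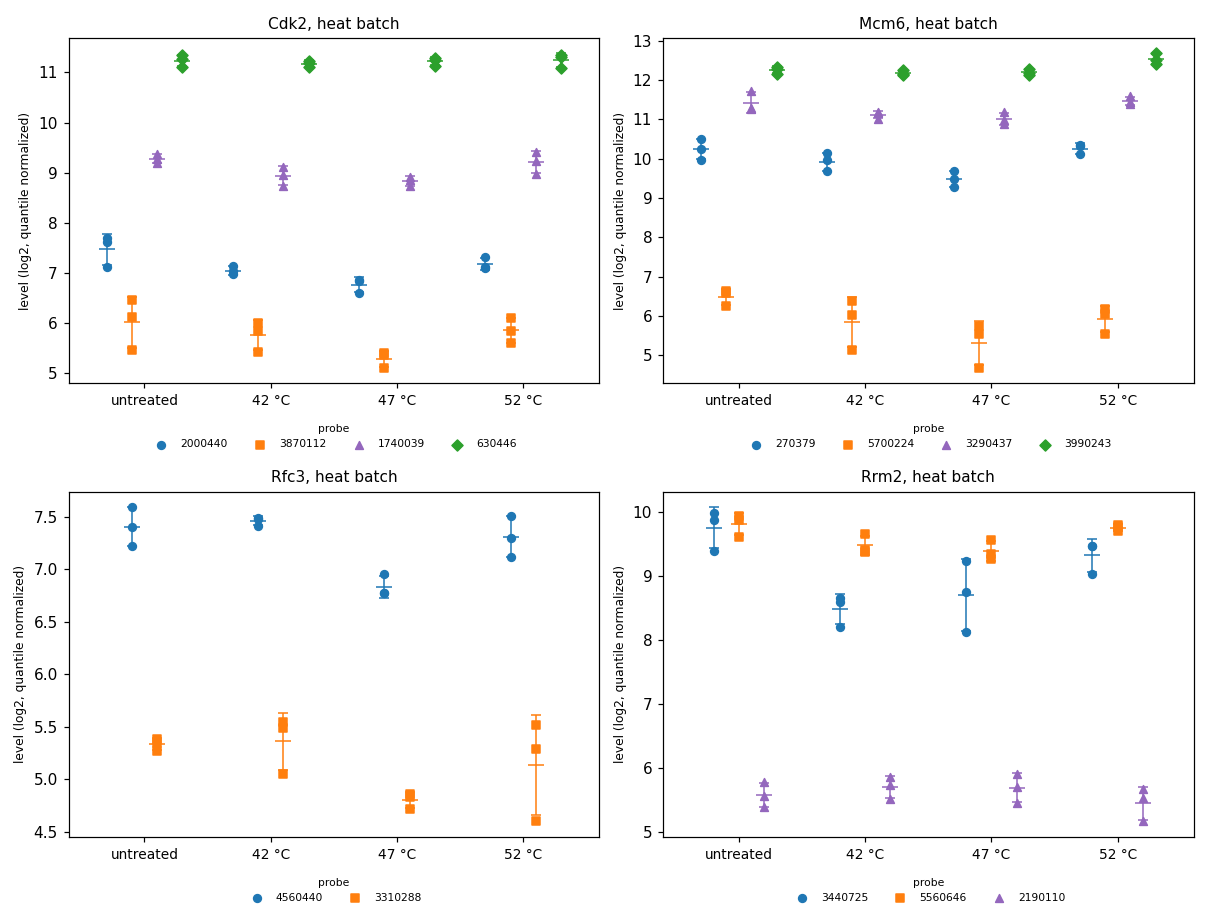
Levels of all tested probes of Cdk2, Mcm6, Rfc3 and Rrm2 on the 12 heat-batch arrays, in log2 quantile-normalized intensity, with mean and SD (n = 3 arrays). The first probe in each legend fell at 47 °C, and so did Mcm6 probe 5700224, while the brightest probes of Cdk2 and Mcm6 differed from untreated cells by -0.02 and -0.06.

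With the beadchip as a block the 5 changes at 47 °C were -0.76, -1.16, -0.71, -0.57 and -1.05 for both Mcm6 probes, Cdk2, Rfc3 and Rrm2, and all 5 stayed called (adjusted p from 0.0227 to 0.0344). Within beadchip 1 they were -0.79, -1.30, -0.80, -0.63 and -1.26, with 2 arrays per group, of which that of Cdk2 was called (adjusted p = 0.0482). Within beadchip 2 they were -0.71, -0.88, -0.52, -0.45 and -0.65. These came from 1 array each of 47 °C and untreated cells, the pair with the highest r of deviations. The count was 4, 0 and 0 without 47 °C replicates 1, 2 and 3, and 5, 0 and 0 without untreated replicates 1, 2 and 3. Over these refits the 5 changes ran from -1.37 to -0.48, with adjusted p up to 0.158. Against 42 °C, Rfc3 was the 1 member probe called (-0.63, 1.55-fold lower at 47 °C, adjusted p = 0.0421), 1.59% of members beside 2.38% of all probes (1.08% higher and 1.3% lower). The groups did not overlap for 13 (20.6%), beside 24.5% of all, and the medians were -0.10 and -0.01. In the fit with a beadchip block Rfc3 was at -0.69 (adjusted p = 0.021), within beadchips 1 and 2 it was -0.62 and -0.68, and without any 1 of the 6 arrays the count was 0. The next smallest p belonged to Tyms probe 510544 (5.80, 6.0 and 5.79 at 47 °C against 5.38, 5.42 and 5.02 at 42 °C), Rfc2 probe 1580278 (7.65, 7.47 and 7.32 at 47 °C against 8.39, 7.85 and 8.35 at 42 °C) and Mcm7 probe 2320575 (9.20, 9.45 and 9.11 at 47 °C against 9.99, 9.53 and 9.77 at 42 °C). The other, probe 6650059 of Pole, the leading-strand polymerase, was detected on 1 of 3 arrays at 47 °C and 0 of 3 at 42 °C (at least 1.05-fold higher at 47 °C). None of these 4 was called (adjusted p from 0.0861 to 0.173).

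The promoters of the 4 genes called at 47 °C are shown because these genes moved in the same direction and E2F sites are the classical element of the pathway. They are RefSeq sequences of build GRCm38.p6, 300 bases around the annotated start, 5′ to 3′ on the strand of the gene. Cdk2 lies at chr10:128705002-128705301 (minus strand), Mcm6 at chr1:128359656-128359955 (minus), Rfc3 at chr5:151651159-151651458 (minus) and Rrm2 at chr12:24708004-24708303 (plus). Capitals mark the E2F motifs TTTCCCGC, TTTGCCGC, TTTGGCGC and TTTCGCGC, searched on both strands. TTTGGCGC and TTTCGCGC overlap in their reverse complements, as in the first Mcm6 site.
Cdk2: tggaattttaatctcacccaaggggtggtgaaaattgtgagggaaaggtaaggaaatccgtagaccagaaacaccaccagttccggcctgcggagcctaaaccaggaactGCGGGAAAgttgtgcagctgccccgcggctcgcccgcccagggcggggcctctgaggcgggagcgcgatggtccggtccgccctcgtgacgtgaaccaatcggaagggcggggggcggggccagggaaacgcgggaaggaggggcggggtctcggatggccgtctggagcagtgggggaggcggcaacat
Mcm6: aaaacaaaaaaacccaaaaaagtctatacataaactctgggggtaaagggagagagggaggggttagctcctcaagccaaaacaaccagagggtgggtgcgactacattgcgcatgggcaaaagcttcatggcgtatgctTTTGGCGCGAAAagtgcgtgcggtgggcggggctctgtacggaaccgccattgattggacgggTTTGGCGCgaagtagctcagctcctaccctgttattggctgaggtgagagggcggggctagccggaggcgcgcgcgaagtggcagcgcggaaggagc
Rfc3: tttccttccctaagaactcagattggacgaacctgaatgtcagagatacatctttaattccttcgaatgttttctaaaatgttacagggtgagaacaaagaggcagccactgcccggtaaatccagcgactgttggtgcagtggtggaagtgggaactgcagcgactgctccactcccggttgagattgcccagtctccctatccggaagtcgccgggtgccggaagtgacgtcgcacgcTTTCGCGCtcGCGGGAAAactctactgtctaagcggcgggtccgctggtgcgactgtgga
Rrm2: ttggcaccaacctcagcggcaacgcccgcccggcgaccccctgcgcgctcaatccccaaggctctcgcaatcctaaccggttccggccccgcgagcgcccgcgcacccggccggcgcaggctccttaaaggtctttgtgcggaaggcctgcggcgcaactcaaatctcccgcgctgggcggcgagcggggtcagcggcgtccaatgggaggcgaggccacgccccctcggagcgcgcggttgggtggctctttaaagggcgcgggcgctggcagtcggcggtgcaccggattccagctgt
Cdk2 held 1 match, Mcm6 held 3 at 2 places, Rfc3 held 2 and Rrm2 held 0 in this window. Of the 39 members 32 had a promoter in the table. Among these 32 genes 13 (40.6%) held at least 1 of the motifs, beside 704 of all 27025 genes (2.6%). The members were chosen as genes of this pathway, so that this share describes the choice and says nothing about the changes at 47 °C. Mcm3, Mcm5, Cdc6 and Cdt1, which were not called at 47 °C, also held motifs. Over all 32851 promoters the shares were 1.07% for TTTCCCGC, 0.441% for TTTGCCGC, 0.514% for TTTGGCGC and 0.323% for TTTCGCGC. A match is a description of these letters and not evidence of binding.

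At 52 °C the directions were mixed. Pold1 (the catalytic subunit of polymerase delta), 1 probe of Ccnd3 and 2 bright Rfc2 probes rose, and 1 probe of Tyms (thymidylate synthase) and 2 of Ccnd2 fell. Of 63 member probes 7 were called, 4 higher and 3 lower (11.1%), beside 12.8% of all probes (6.55% higher and 6.24% lower), and the groups did not overlap for 17 (27%), beside 31% of all. The median change was 0.02 over members and -0.01 over all probes. By role the median was 0.34 for polymerases and primase, 0.25 for the clamp and its loader, 0.23 for licensing and firing and -0.01 for the helicase. It was -0.04 for E2F, cyclins and kinases and -0.26 for nucleotide supply. Of the nucleotide supply probes 9 of 10 lay below 0, beside 7012 of 13773 of all probes. Without 52 °C replicate 1 the helicase was at 0.03 and E2F, cyclins and kinases at 0.09. Without background correction nucleotide supply was at -0.08 and polymerases and primase at 0.21. Under median scaling it was at -0.09 and the clamp and its loader at 0.18.

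The Ccnd2 falls were the largest member changes at 52 °C. Probe 1260324 was at 9.64, 8.12 and 8.35 in untreated cells, 7.97, 7.66 and 8.0 at 42 °C, 7.66, 10.25 and 7.89 at 47 °C and 6.51, 6.75 and 7.0 at 52 °C. Probe 1580088 was at 10.25, 8.87 and 9.05 in untreated cells, 8.62, 8.80 and 8.73 at 42 °C, 8.52, 10.71 and 8.71 at 47 °C and 7.45, 7.58 and 7.76 at 52 °C. For both probes the 52 °C arrays lay below all 9 others, and untreated replicate 1 and 47 °C replicate 2 lay well above the rest of their groups. Their changes against untreated cells were -1.95 ± 0.56 and -1.79 ± 0.48 (3.86-fold and 3.46-fold lower, adjusted p = 0.039 and 0.0317). With the beadchip as a block the changes were -2.27 and -2.04 (adjusted p = 0.00975 and 0.0102), within beadchip 1 -1.24 and -1.19, from 1 array at 52 °C, and within beadchip 2 -3.0 and -2.73, against untreated replicate 1 alone. Without untreated replicate 1 or 3, or 52 °C replicate 2 or 3, neither was called, and over all refits without 1 array the changes ran from -2.24 to -1.36. Ccnd2 probe 6770286 was at 5.97, 5.14 and 5.69 in untreated cells, 5.44, 5.0 and 5.70 at 42 °C, 4.95, 7.29 and 6.07 at 47 °C and 5.55, 5.50 and 5.98 at 52 °C, a difference of 0.08 at 52 °C (adjusted p = 0.924). At 42 °C the differences of the first and second probes were -0.82 and -0.67, without overlap but not called (adjusted p = 0.537 and 0.568).

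Tyms probe 2100026 was at 11.24, 11.33 and 11.47 in untreated cells, 11.59, 11.18 and 11.42 at 42 °C, 10.99, 11.17 and 11.03 at 47 °C and 10.88, 10.56 and 10.63 at 52 °C. It fell by 0.66 ± 0.15 at 52 °C (1.57-fold, adjusted p = 0.0159), with the 52 °C arrays below all 9 others. Tyms probe 4810239 differed by -0.81 (adjusted p = 0.0555), and the other 3 Tyms probes were not called. Pold1 was at 9.52, 9.97 and 10.02 in untreated cells, 10.30, 10.33 and 10.29 at 42 °C, 10.31, 10.19 and 10.40 at 47 °C and 10.24, 11.03 and 10.59 at 52 °C. It rose by 0.79 ± 0.19 at 52 °C (1.72-fold, adjusted p = 0.0229), and the arrays of all 3 heated groups lay above those of untreated cells.

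Ccnd3 probe 610717 was at 11.41, 12.04 and 11.87 at 52 °C and 11.15, 11.03 and 11.24 in untreated cells (1.55-fold higher, 0.63 ± 0.16, adjusted p = 0.0286). The other Ccnd3 probes were not called, 5900433 at -0.16 (adjusted p = 0.733) and 2320050, detected on 0 of 3 arrays at 52 °C, with an adjusted p of 0.694. Rfc2 probe 2570246 was at 11.03, 11.30 and 11.27 at 52 °C and 10.45, 10.75 and 10.84 in untreated cells (1.44-fold higher, adjusted p = 0.0346). Rfc2 probe 4730491 was at 10.34, 10.74 and 10.68 at 52 °C and 10.19, 10.04 and 10.06 in untreated cells (1.40-fold higher, adjusted p = 0.0373). Groups did not overlap for Ccnd3 probe 610717 and these 2 Rfc2 probes, and 52 °C replicate 1 was the lowest of its group for each and for Pold1. The 2 other Rfc2 probes differed by 0.44 and 0.08 without a call.

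Under the beadchip block all 7 member probes called at 52 °C stayed called and 12 were called in total. Within beadchips 1 and 2 the changes were -0.77 and -0.52 for Tyms, 0.60 and 1.12 for Pold1, 0.73 and 0.57 for Ccnd3, and 0.48 and 0.71 and 0.63 and 0.35 for the Rfc2 probes 2570246 and 4730491. The count was 12, 0 and 0 without 52 °C replicates 1, 2 and 3, and 1, 3 and 1 without untreated replicates 1, 2 and 3, with adjusted p up to 0.145 for the 7 probes. Under median scaling neither Rfc2 probe was called (0.44 and 0.41, adjusted p = 0.0816 and 0.0696). Marker sums of other cell types differed on some arrays of this group. The summed level of the T cell list (Cd3d, Cd8b1, Lck and Tcf7, with Cd3e, Cd3g, Cd4 and Cd8a not passing detection) was 2906 to 3105 at 52 °C against 1970 to 2331 in untreated cells. That of the macrophage list, of which Adgre1 alone passed, was 4019, 8810 and 9778 on 52 °C replicates 1, 2 and 3. In untreated cells it was 3837 to 4597. The sum for the markers of the line was 11200, 6032 and 6636 on these 52 °C arrays against 7412 to 9297 in untreated cells. Against untreated cells, over all heated groups, the line list had 2 calls, the T cell list 1 and the macrophage list 0. Their part in the member changes was not tested.

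Set against 47 °C, Mcm6 was higher at 52 °C and a dim Tyms probe lower. Of 63 member probes 2 were called (3.17%), beside 3.46% of all probes (1.73% higher and 1.74% lower), and the groups did not overlap for 22 (34.9%), beside 22.1% of all. The median difference was 0.20 over members and 0.01 over all probes. Above 0 lay 44 of 63 member probes, beside 7129 of 13773 of all probes. Among the 44 were 11 of 14 helicase probes and 9 of 11 of the clamp and its loader. The related lists rose too, with medians of 0.15 (other replication factors), 0.13 (other G1/S regulators) and 0.13 (G2/M genes). The comparison of 52 with 47 °C shares the 47 °C arrays with that of 47 °C against untreated cells, so that a member low on those arrays is high here. Mcm6 probe 270379, given above, was 0.78 ± 0.17 higher (1.72-fold, adjusted p = 0.0347). Tyms probe 3130435 was at 5.01, 4.84 and 4.55 at 52 °C, where it was detected on 0 of 3 arrays, and 5.73, 5.70 and 5.23 at 47 °C (at least 1.23-fold lower, adjusted p = 0.0397). Ccnd2 probes 1580088 and 1260324 were 1.71 and 1.85 lower (adjusted p = 0.0649 and 0.081), and Pcna, at 9.77, 9.42 and 9.66 at 52 °C and 9.25, 9.08 and 8.93 at 47 °C, was 0.52 higher (adjusted p = 0.0675). A beadchip block left Mcm6 0.81 higher, and it and Tyms stayed called (adjusted p = 0.0277 and 0.0182). Under the same block the Ccnd2 changes of -1.96 and -2.17 were called (adjusted p = 0.0255 and 0.0249). Within beadchips 1 and 2 Mcm6 was 0.74 and 0.95 higher. Without 52 °C replicates 1, 2 and 3 the count was 7, 0 and 0, and without 47 °C replicates 1, 2 and 3 it was 4, 0 and 0.

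The members found under older names had 1 call in the 8 comparisons. Orc2, a subunit of the origin recognition complex, averaged 4.84 at 18 kHz, 6.09 at 1 kHz and 5.63 in untreated cells. It was lower at 18 kHz than at 1 kHz (adjusted p = 0.0185 in limma). Its probe was detected on 0 of 3 arrays at 18 kHz, against 3 of 3 at 1 kHz and 1 of 3 in untreated cells. The level at 18 kHz is therefore only a bound. The probe met the detection rule only through the 1 kHz arrays, where it was highest, so that this call is no support for a change. Orc1 and Orc6, of the same complex, differed by -0.22 and -0.47 between 18 kHz and untreated cells, and Cdc45 by 0.07, none called. In the heat batch the changes of these 4 genes against untreated cells ran from -0.25 to 0.22 with 0 calls. A further probe that the naming table gives to Gins2 was 0.46 lower at 18 kHz than in untreated cells without a call (adjusted p = 0.103).

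Other genes of the pathway were read from lists that hold no member. Of 48 other replication factors 42 were tested in each batch. At 18 kHz 3 of their 74 probes rose and 1 fell (5.41%), beside 2.94% of all tested probes. Clspn, a checkpoint mediator, averaged 9.12 at 18 kHz and 7.11 in untreated cells (2.01 higher, adjusted p = 0.028). Lig1, the DNA ligase of lagging strands, was 1.09 higher (adjusted p = 0.0455). Dut, which removes dUTP, was 0.55 higher (adjusted p = 0.0491) and Tipin, of the fork protection complex, fell by 0.55 (adjusted p = 0.0492). At 42 °C 1 of 73 changed (1.37%), beside 2.38% of all. It was a probe of the single-strand binding subunit Rpa2, at 7.56 against 5.07 in untreated cells (2.48 higher, adjusted p = 0.0015). Its untreated level is near background, where for example Ccnd3 probe 2320050, averaging 5.04 at 52 °C, was detected on 0 of 3 arrays. The size of this rise may thus be only a bound. A second Rpa2 probe, at 7.97 in untreated cells, was not called at 42 °C. At 47 °C 3 rose and 3 fell (8.22%), beside 7.83% of all. The smallest p were those of Nasp, a histone chaperone (fell by 1.10, adjusted p = 0.0188), and Dut (fell by 0.77, adjusted p = 0.0195). Next came Chtf18, of an alternative clamp loader (0.77 higher, adjusted p = 0.026), and the first Rpa2 probe (1.35 higher, adjusted p = 0.0329, with the same limit). The second Rpa2 probe fell by 0.65. At 52 °C 2 rose and 1 fell (4.11%), beside 12.8% of all, led by Pold4, a small subunit of polymerase delta (1.05 higher, adjusted p = 0.0161).

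Of 42 other G1/S regulators 30 were tested in the actuation batch and 28 in the heat batch. At 18 kHz 1 of 50 probes changed (2%), beside 2.94% of all tested probes. It was for the kinase inhibitor Cdkn1a, at 12.06 against 12.78 in untreated cells (fell by 0.73, adjusted p = 0.0424). At 42 °C 0 of 46 were called, beside 2.38% of all, and 2 had an unadjusted p below 0.05. At 47 °C 1 of 46 rose (2.17%), beside 7.83% of all called in either direction. It was for Skp2, the ubiquitin ligase subunit that removes the inhibitor Cdkn1b, at 9.30 against 8.59 in untreated cells (0.72 higher, adjusted p = 0.00859). At 52 °C 3 rose and 2 fell (10.9%), beside 12.8% of all. Skp2 was again 0.72 higher (adjusted p = 0.00528) and the inhibitor Cdkn2b 0.66 higher (adjusted p = 0.0141). The activator E2f3 was at 6.77 against 7.54 in untreated cells (adjusted p = 0.018). Cul1, the scaffold of the Skp2 ligase, was at 7.90 against 8.64 in untreated cells (adjusted p = 0.0324). At 1 kHz 0 probes of either list were called in limma and 0 had an unadjusted p below 0.05.

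The remaining member probes moved less or varied more. In the actuation batch, uncalled changes against untreated cells ran down to -1.49 at 18 kHz, for Mcm6 probe 5700224 at 7.41, 4.84 and 6.51 at 18 kHz against 7.67, 7.82 and 7.75 in untreated cells (adjusted p = 0.127). This probe and Gins1, at 6.35, 5.49 and 7.47 at 18 kHz against 7.54, 7.41 and 7.19 in untreated cells (-0.94, adjusted p = 0.177), were lowest on 18 kHz replicate 2, where neither was detected. In the heat batch Gins1 was at 5.72, 7.79 and 7.45 in untreated cells, 7.55, 7.92 and 7.53 at 42 °C, 7.51, 6.08 and 7.68 at 47 °C and 7.55, 8.01 and 7.82 at 52 °C, low on untreated replicate 1 and 47 °C replicate 2, the arrays that were high for Ccnd2. Rfc1 and Rfc5 (clamp loader), Pola2 (polymerase alpha), Mcm2, Mcm5 and Gins2 (helicase), Cdt1 (licensing), Rrm1 (large subunit of ribonucleotide reductase), Cdk4, Ccne1 and E2f2 had no called probe in any comparison.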

How the data were processed

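Illumina BeadChip intensities of 21 arrays of Ba/F3 cells were used. The authors deposited, per batch, the average bead intensity of each probe, neither normalized nor background-subtracted per the file headers, with a detection p-value beside each intensity. In the table of batch A 3 further arrays match no sample and were not used. Groups were taken from the labels.

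Each batch was processed alone in limma 3.58.1 (R 4.3.3): normal-exponential background correction that took its background from the deposited detection p-values, then an offset of 16, quantile normalization and log2. A detection p under 0.01 on 3 or more arrays was required for testing, which left probes numbering 14130 in batch A and 13773 in batch B. Linear models over all arrays of a batch with moderated statistics were two-sided, and p-values were adjusted by Benjamini-Hochberg over all tested probes. The fit was run on simulated independent normal values, without dim arrays, beadchip effects or shared deviations, so that run says nothing about these. The number of arrays, 3 per group, limits the precision, and 0 pairs of arrays were identical. A probe detected on 0 of 3 arrays of a group has only a bound there, taken per array as the larger of its own level and the smallest level detected on that array. Where such a bound came to under 1, the fold was left out.

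Members were matched by the name in the files. Other names came from accession, Entrez identifier, symbol or synonym in a RefSeq table of build GRCm38.p6, while the build behind the array annotation is not given in the sources used here. Promoters came from RefSeq sequences of that build. Named in detail were called member probes, up to 12 in each direction per comparison, or the 5 with the smallest p where fewer than 4 were called, and up to 4 called genes per pathway list. The members and lists were chosen with earlier results of these data known, so that counts and medians of lists are descriptions. Figures were drawn with matplotlib 3.10.9.

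Alternatives were no background correction, median scaling, no detection filter, detection on every array, one probe per gene, array weights, a beadchip block, a replicate block, single beadchips, leaving out each array, and the deposited log2 table. That table holds 40083 probes of log2 values with array medians near 0, centred by the authors in a way that the labels do not state. Its batch B columns matched all 63 tested member probes, and deviations from the probe means correlated at 0.93 to 0.94 with those used here. The labels do not say whether replicate numbers pair the arrays, and the main fit took them as unpaired. Across groups, same-numbered arrays had r of -0.23 to 0.45 (batch A) and -0.43 to 0.15 (batch B). Arrays with different numbers had r of -0.58 to 0.43 and -0.31 to 0.49. Such correlations cannot show whether the arrays were paired.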

Additional observations from a re-analysis of the deposited data

How the results depend on the processing

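Counts of called member probes moved with most settings, in the order 18 kHz, 42, 47 and 52 °C against untreated cells, 18 kHz against 1 kHz, 47 against 42 °C and 52 against 47 °C, where the main counts were 5, 1, 5, 7, 6, 1 and 2. Named here are counts that moved by more than 1.5 times. Array weights gave 24, 5, 11, 18, 19, 4 and 11. Without background correction the first 3 were 9, 2 and 8 and the last 5. One probe per gene gave 2, 0 and 2 for the first 3, 2 for 18 kHz against 1 kHz and 0 for 52 against 47 °C. Without a detection filter 42 and 47 °C had 0 and 3 and 52 against 47 °C had 0, while detection on every array gave 1 there and median scaling 0. The deposited log2 table gave 2, 11 and 11 at 42, 47 and 52 °C, 3 for 47 against 42 °C and 11 for 52 against 47 °C. The beadchip block gave 12 at 52 °C and 5 for 52 against 47 °C. Most fits within 1 beadchip have a group of 1 array, assumed to vary like the others, and say nothing about stability. Within beadchip 1 the 7 counts were 0, 0, 1, 3, 0, 0 and 0. Within beadchip 2 they were 0, 0 and 2 for the heated groups, 22 for 18 kHz against 1 kHz, where 2 arrays at 1 kHz give the spread, and 0 for both steps of heat. The replicate block gave 0 at 42 °C, 3 at 47 °C, 3 for 18 kHz against 1 kHz and 0 for both steps of heat, and 4 of 9 and 6 of 12 arrays correlated best with their own replicate number. Without both dimmer 18 kHz arrays, a setting chosen after seeing the data, 1 member probe was called against untreated cells and 2 against 1 kHz. At 1 kHz the count was 0 in all settings that were run.

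Leaving out 1 array at a time gave 0 to 25 called members at 18 kHz, 0 to 0 at 1 kHz, 0 to 1 at 42 °C, 0 to 5 at 47 °C, 0 to 12 at 52 °C, 0 to 25 for 18 kHz against 1 kHz, 0 to 0 for 47 against 42 °C and 0 to 7 for 52 against 47 °C. Member medians then ran from -0.22 to -0.13 at 18 kHz, -0.03 to 0 at 1 kHz, -0.11 to 0.02 at 42 °C, -0.17 to -0.1 at 47 °C and -0.03 to 0.1 at 52 °C. The member median at 18 kHz was -0.11 without background correction, -0.11 under median scaling and -0.08 with detection on every array, that at 1 kHz was -0.06 under median scaling, that at 42 °C was -0.16 and 0.03 within beadchips 1 and 2 of the heat batch, and that at 52 °C was 0.15 within beadchip 1. Single probes changed sign under median scaling (Ccne2 0.08 against untreated cells and 0.24 against 1 kHz, differences of measured levels where that at 18 kHz is only a bound, Mcm4 probe 6130288 0.06 against 1 kHz), with the beadchip block at 1 kHz (Pcna -0.05, Prim1 -0.14) and within beadchip 1 (Prim1 -0.17). The cause was not tested in any of these, except that one probe per gene and detection on every array test fewer probes and that leaving out arrays or using 1 beadchip leaves fewer arrays. With 3 arrays per group, dim probes near background, such as those of Ccne2 and Mcm4 at 18 kHz, give only bounds.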
